A study of Mus musculus with 8 samples.

Results

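The 8 genes described here encode transcription factors known for podocyte identity and nephron development: Wt1, Tcf21, Lmx1b, Foxc1, Foxc2, Foxd1, Foxd2 and Osr1. They were chosen by symbol from the deposited table of read counts, and all 8 stood on lines that held a count for every library, among 17326 such gene lines. The study sequenced polyadenylated RNA from mouse kidney cells sorted by fluorescence (FACS). The labels give 4 groups of 2 libraries, numbered 2 and 3: endothelium and podocytes with the genotype EMCN+/+ (wild type), and endothelium and podocytes with the genotype EMCN-/- (knockout). EMCN is endomucin, a sialomucin of the endothelial surface, and the series title places the work in the glomerulus. The age and sex of the animals, how the Emcn allele was made and the surface markers or reporters used for sorting are not given in the sources used here. The labels do not say whether libraries came from separate animals, so p-values measure the spread between these samples, which may be technical.

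Podocytes are the epithelial cells that wrap the glomerular capillaries with interlocking foot processes and hold the slit diaphragm, the last filter before the urinary space. Their identity is kept by a small set of transcription factors. WT1 is a zinc finger protein that binds many podocyte genes directly, TCF21 is a basic helix-loop-helix protein that pairs with E-proteins, LMX1B is a LIM homeodomain protein, and FOXC1, FOXC2, FOXD1 and FOXD2 carry the forkhead DNA-binding domain. OSR1 is a zinc finger protein of the earliest kidney progenitors.

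The deleted gene was checked first. Emcn stood at 1972 and 1828 CPM (counts scaled to a common library size by the TMM method) in replicates 2 and 3 of wild-type endothelium and at 173 and 179 in knockout endothelium. In podocytes it stood at 74.1 and 35.9 CPM in wild type and at 5.59 and 4.94 in knockout. The knockout libraries were below the wild-type libraries of the same cell type in both cases. The libraries held 10478956 to 17386042 counts on complete lines, 10.09% to 26.16% of them mitochondrial, and wild-type endothelium replicate 3 stood apart from the other 7 libraries on the second principal component. The 9 measured endothelial markers, among them Kdr and Cdh5, summed to 8777 to 10540 CPM in endothelium and 466.5 to 702.7 CPM in podocytes. The 6 measured podocyte markers (among them Synpo, Podxl, Cdkn1c, Kirrel and Clic5) summed to 8478 to 18130 CPM in podocytes and 1453 to 2736 CPM in endothelium. No gene of either list was at 0 in any library, so transcripts of both lists were present in every library. Tubule transcripts were present as well: 4 markers of distal tubule and collecting duct summed to 2435 to 14270 CPM in endothelium and 4001 to 11210 CPM in podocytes, with the highest sum in wild-type endothelium replicate 3. The 5 parietal epithelial markers summed to 586.8 to 1116 CPM in podocytes and 148.1 to 430.6 CPM in endothelium. The part of tubule and parietal cells in the values of the 8 factors was not tested. Nphs1, the slit diaphragm gene that encodes nephrin, was on an incomplete line and is not analysed here.

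Wt1 and Tcf21 were the most abundant of the 8 factors, and Wt1, Tcf21 and Foxc2 were about 8 to 13 times higher in podocytes than in endothelium in each genotype. Foxc1 and Foxd1 were also higher in podocytes of both genotypes, Lmx1b passed the test in knockout and for both genotypes averaged, Foxd2 passed for the average only, and Osr1 passed in none of the 3. Between knockout and wild type no factor passed the test in either cell type.

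Reference promoters show what sequence stands upstream of these genes. RefSeq promoters of assembly GRCm38.p6 were found for 5 of the 8 factors (Tcf21, Lmx1b, Foxc1, Foxd1 and Foxd2). The 3 printed here are the 250 bases before the start of Tcf21, Foxd1 and Foxc1, 5′ to 3′ on the strand of the gene, with every CG in capitals. They were chosen after their values were seen, because they span the range of CG content while all 3 genes were higher in podocytes.
Tcf21, chr10:22820144-22820393, minus strand: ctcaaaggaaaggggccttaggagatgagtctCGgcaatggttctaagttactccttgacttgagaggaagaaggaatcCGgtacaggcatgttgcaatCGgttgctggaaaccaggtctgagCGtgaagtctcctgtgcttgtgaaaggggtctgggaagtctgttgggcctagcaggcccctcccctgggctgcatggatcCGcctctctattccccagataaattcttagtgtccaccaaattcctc
Foxd1, chr13:98353995-98354244, plus strand: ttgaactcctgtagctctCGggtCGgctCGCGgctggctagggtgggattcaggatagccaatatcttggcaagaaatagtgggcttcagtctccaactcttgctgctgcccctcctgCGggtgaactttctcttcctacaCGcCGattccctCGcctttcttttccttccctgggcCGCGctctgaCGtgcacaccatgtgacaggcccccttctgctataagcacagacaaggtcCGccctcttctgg
Foxc1, chr13:31806396-31806645, plus strand: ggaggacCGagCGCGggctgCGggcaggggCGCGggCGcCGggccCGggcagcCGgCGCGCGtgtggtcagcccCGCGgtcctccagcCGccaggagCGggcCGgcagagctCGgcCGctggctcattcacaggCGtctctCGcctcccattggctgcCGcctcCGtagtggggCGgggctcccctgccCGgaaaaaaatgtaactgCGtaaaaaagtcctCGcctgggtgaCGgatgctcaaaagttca
The Tcf21 window holds 5 CG and has a GC content of 52.4%, next to a median of 6 CG and 52.4% over 32851 RefSeq promoters. Foxd1 has 12 CG and Foxc1 has 29, and 6.78% of all promoters hold at least as many CG as that of Foxc1. Lmx1b (19 CG) and Foxd2 (16 CG) fall between Foxd1 and Foxc1. Factors that were higher in the same cells have upstream windows from near the genome's median to its CG-rich end.

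The same 5 windows were searched on both strands for 6 short motifs. The WT1 and EGR type of site GNGTGGGNG, which 12.7% of all promoters hold, was in none of the 5. Neither was the E-box CAGCTG (13.0% of promoters), the forkhead motif GTAAACA (3.17%), the homeodomain motif TAATTA (4.84%) or the TATA box TATAAA (12.4%). The general E-box CANNTG, of which CAGCTG is one form, is in 66.2% of promoters and was found once each in the windows of Lmx1b (CAAATG, -74 to -69) and Foxd1 (CATGTG, -54 to -49), counted from the start that the promoter table uses. For Lmx1b that start lies inside the gene span given below, so part of its window, the match included, is within the gene. No match says only that these letters are not in this window.

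Wt1 (Entrez 22431) lies at chr2:105126529-105173614 on the plus strand of GRCm38. It is required for the kidney to form and stays on in mature podocytes. Its level was 55.2 and 26.2 CPM in wild-type endothelium, 25.5 and 34.6 in knockout endothelium, 565 and 421 in wild-type podocytes and 283 and 389 in knockout podocytes (replicates 2 and 3). Every podocyte library was above every endothelium library, and both knockout podocyte libraries were below both wild-type ones. The podocyte level was 12.1-fold that of endothelium in wild type (log2 difference 3.60, standard error 0.39, edgeR adjusted p = 0.000211) and 11.2-fold in knockout (3.48, standard error 0.38, edgeR adjusted p = 0.000271). In these bulk samples fewer cells of a type and less RNA of a gene per cell cannot be told apart, which holds for every value below.

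Tcf21 (Entrez 21412), at chr10:22817263-22820143 on the minus strand, is needed for podocyte and stromal maturation in the developing glomerulus. It was measured at 55.6 and 18.4 CPM in wild-type endothelium, 29.9 and 42.8 in knockout endothelium, 513 and 351 in wild-type podocytes and 239 and 324 in knockout podocytes. As for Wt1, the podocyte and endothelium libraries did not overlap and the knockout podocyte libraries were the lower pair. Podocytes were higher by a log2 difference of 3.55 in wild type (11.7-fold, standard error 0.48, edgeR adjusted p = 0.000874) and 2.95 in knockout (7.75-fold, standard error 0.47, edgeR adjusted p = 0.00246). Among the 4 endothelium libraries the wild-type ones were the highest (replicate 2) and the lowest (replicate 3), so the genotypes overlapped there.

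Foxc2 (Entrez 14234), at chr8:121116171-121118895 on the plus strand, is known for roles in podocytes, lymphatic vessels and heart. Its values were 9.95 and 4.42 CPM in wild-type endothelium, 4.94 and 3.36 in knockout endothelium, 105 and 73.2 in wild-type podocytes and 49.1 and 60.8 in knockout podocytes. All podocyte values were above all endothelium values, and both knockout podocyte libraries were below both wild-type ones. Foxc2 had the largest average cell type difference of the 8 factors, 12.8-fold over both genotypes (log2 3.68, standard error 0.29, edgeR adjusted p = 9.6e-06). The wild-type difference alone was 12.4-fold (edgeR adjusted p = 0.000254) and the knockout difference 13.2-fold (edgeR adjusted p = 0.000274).

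Foxc1 (Entrez 17300), the close relative of Foxc2, is at chr13:31806646-31810635 on the plus strand and is also active in endothelial and mesenchymal cells. Foxc1 was read at 6.08 and 5.43 CPM in wild-type endothelium, 5.57 and 7.14 in knockout endothelium, 22.8 and 14.1 in wild-type podocytes and 19.6 and 32.1 in knockout podocytes. The cell types again did not overlap, but the gap was narrower than for Foxc2: 3.21-fold in wild type (log2 1.68, standard error 0.38, edgeR adjusted p = 0.0178) and 4.07-fold in knockout (log2 2.02, standard error 0.38, edgeR adjusted p = 0.00651). The wild-type call was lost without wild-type endothelium replicate 2 (edgeR adjusted p = 0.0776), without wild-type endothelium replicate 3 (0.125) or without wild-type podocyte replicate 2 (0.173). The knockout call was lost without knockout endothelium replicate 2 (edgeR adjusted p = 0.0647).

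Foxd1 (Entrez 15229), at chr13:98354245-98356705 on the plus strand, marks the stromal progenitors of the embryonic kidney and is also found in podocytes. Its level was 0.760 and 1.23 CPM in wild-type endothelium, 0.423 and 0.946 in knockout endothelium, 7.97 and 4.94 in wild-type podocytes and 5.90 and 10.3 in knockout podocytes, which were 6 to 17 reads per endothelium library and 68 to 140 per podocyte library. All podocyte values were above all endothelium values, while wild type and knockout overlapped in each cell type. The difference was 6.43-fold in wild type (log2 2.68, standard error 0.60, edgeR adjusted p = 0.0172) and 11.9-fold in knockout (log2 3.57, standard error 0.63, edgeR adjusted p = 0.0047). Leaving out wild-type endothelium replicate 2 (edgeR adjusted p = 0.116), wild-type endothelium replicate 3 (0.064) or wild-type podocyte replicate 2 (0.119) ended the wild-type call, and leaving out knockout endothelium replicate 2 ended the knockout call (0.055).

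Foxd2 (Entrez 17301), at chr4:114906280-114908898 on the minus strand, is a less studied relative of Foxd1. It stood at 0.988 and 2.68 CPM in wild-type endothelium, 1.20 and 2.41 in knockout endothelium, 9.59 and 4.21 in wild-type podocytes and 5.34 and 9.88 in knockout podocytes. The cell types did not overlap here either, but the replicates of each group lay well apart. The fitted differences were 3.75-fold in wild type (log2 1.91, standard error 0.66, edgeR adjusted p = 0.124) and 4.23-fold in knockout (log2 2.08, standard error 0.67, edgeR adjusted p = 0.0809), and neither passed. The average over genotypes passed (log2 1.99, standard error 0.47, edgeR adjusted p = 0.0134), though not without knockout endothelium replicate 2 (0.0559) or wild-type podocyte replicate 2 (0.0632).

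Lmx1b (Entrez 16917), the gene mutated in nail-patella syndrome, is at chr2:33560965-33641208 on the minus strand. It was the sparsest of the 8, with 8 and 2 reads in wild-type endothelium, 3 and 1 in knockout endothelium, 58 and 32 in wild-type podocytes and 50 and 24 in knockout podocytes. As CPM these were 0.608, 0.145, 0.212 and 0.0860 in the endothelium libraries, and 3.76, 2.32, 3.11 and 1.77 in the podocyte libraries, in the same order. The lowest podocyte value was above the highest endothelium value. The fitted difference was 7.98-fold in wild type (log2 3, standard error 0.85, edgeR adjusted p = 0.0541) and 15.2-fold in knockout (log2 3.92, standard error 0.94, edgeR adjusted p = 0.0237). Only the second passed, the difference between the 2 genotypes was not past the threshold (edgeR adjusted p = 1), and the knockout call was lost without knockout endothelium replicate 2 (0.107), knockout endothelium replicate 3 (0.156) or knockout podocyte replicate 2 (0.111). Averaged over both genotypes Lmx1b was 11.0-fold higher in podocytes (log2 3.46, standard error 0.63, edgeR adjusted p = 0.00307).

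Osr1 (Entrez 23967), at chr12:9574442-9581500 on the plus strand, is a gene of intermediate mesoderm and nephron progenitors. It was measured at 2.51 and 0.579 CPM in wild-type endothelium, 4.09 and 2.41 in knockout endothelium, 5.44 and 4.57 in wild-type podocytes and 10.9 and 2.80 in knockout podocytes. Osr1 was the one factor whose podocyte and endothelium libraries overlapped, since knockout podocyte replicate 3 was below knockout endothelium replicate 2. The log2 difference was 1.70 in wild type (standard error 0.78, edgeR adjusted p = 0.265), 1.07 in knockout (0.74, 0.441) and 1.38 on average (0.54, 0.109). The average passed without wild-type endothelium replicate 2 (edgeR adjusted p = 0.0406) or without knockout podocyte replicate 3 (0.033). Knockout podocyte replicate 2, the library with the highest Osr1, also had the highest sum of proximal tubule markers (1313 CPM over 3 genes, against 297.7 to 514.8 in the other podocyte libraries). The same held for parietal epithelial markers (1116 CPM over 5 genes, against 586.8 to 658) and for mesangial and mural markers (1307 CPM over 8 genes, against 513.9 to 987). Its distal tubule and collecting duct sum was the lowest of the podocyte libraries (4001 CPM over 4 genes, against 4931 to 11210). Its fibroblast sum (16.4 CPM over 2 genes) was below both wild-type podocyte libraries (22.1 and 26.93). Its sum of immune markers was the highest (119.1 CPM over 4 genes, against 80.45 to 93.84), but 106.9 CPM of it was Csf1r. Cd68, Adgre1 and Lyz2 were each lower there than in wild-type podocyte replicate 2. The part of all these cells in the Osr1 value was not tested.

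**Figure D1:**
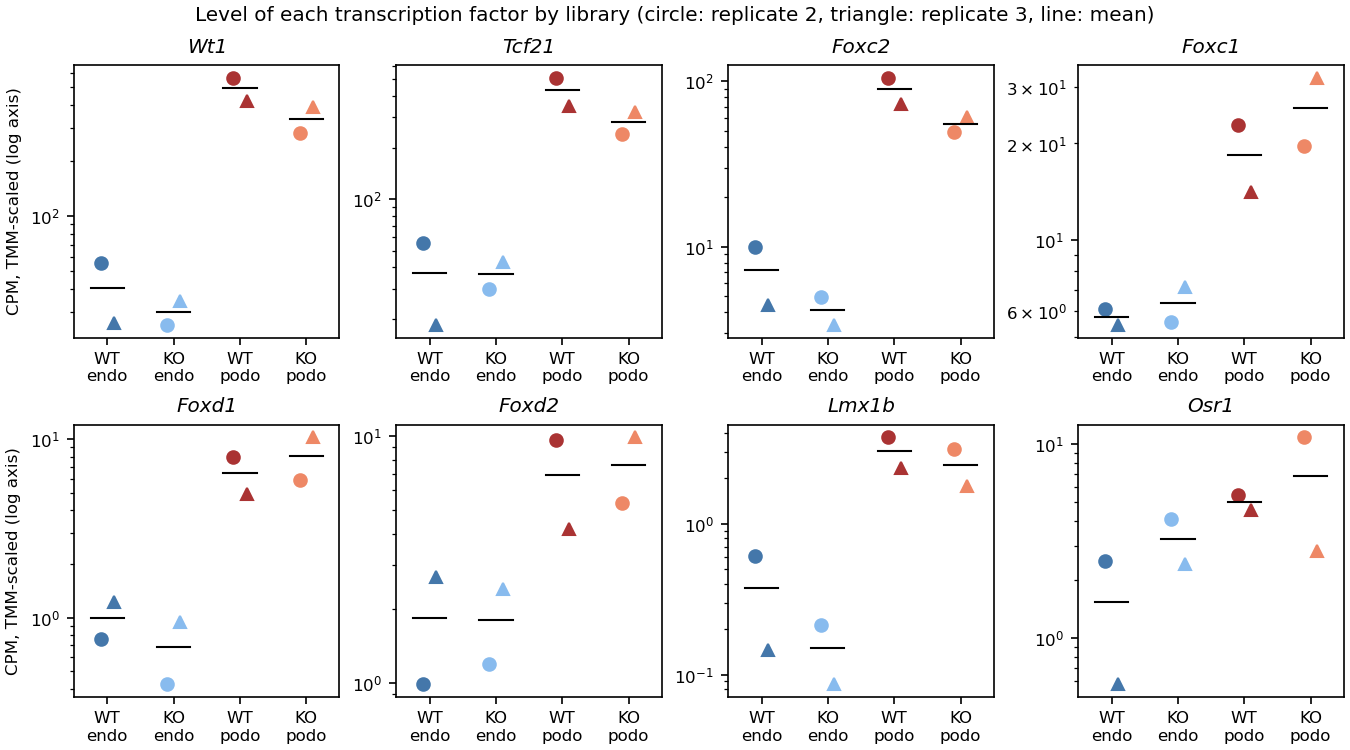
Level of each factor in the 8 libraries, as TMM-scaled CPM on a log axis with its own range for each gene, with circles for replicate 2, triangles for replicate 3 and a line at the mean of each group of 2. All 4 podocyte libraries are above all 4 endothelium libraries for 7 genes, and Osr1 is the one with overlap.

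The plot of levels by library shows the cell types apart for 7 of the 8 factors. Over all 16477 genes tested, 12.3% had all 4 podocyte libraries above all 4 endothelium libraries. By edgeR's test at an adjusted p of 0.05, 5 of the 8 factors were higher in podocytes in wild type, where 4.73% of all genes were called higher. In knockout 6 of 8 were called higher against 6.09% of all genes, and on average over the genotypes 7 of 8 against 11.1%. No factor was called lower in podocytes in any of the 3 comparisons, where 4.26%, 4.28% and 7.19% of all genes were. The median log2 difference of the 8 was 2.84 in wild type, 3.22 in knockout and 3.19 on average, next to medians of 0.01, 0.01 and 0 over all genes tested. Leaving out single libraries took the wild-type count to as few as 3, which happened without wild-type endothelium replicate 2, wild-type endothelium replicate 3 or wild-type podocyte replicate 2, and took the knockout count to 3 without knockout endothelium replicate 2. Wt1, Tcf21 and Foxc2 passed in each of these fits.

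**Figure D2:**
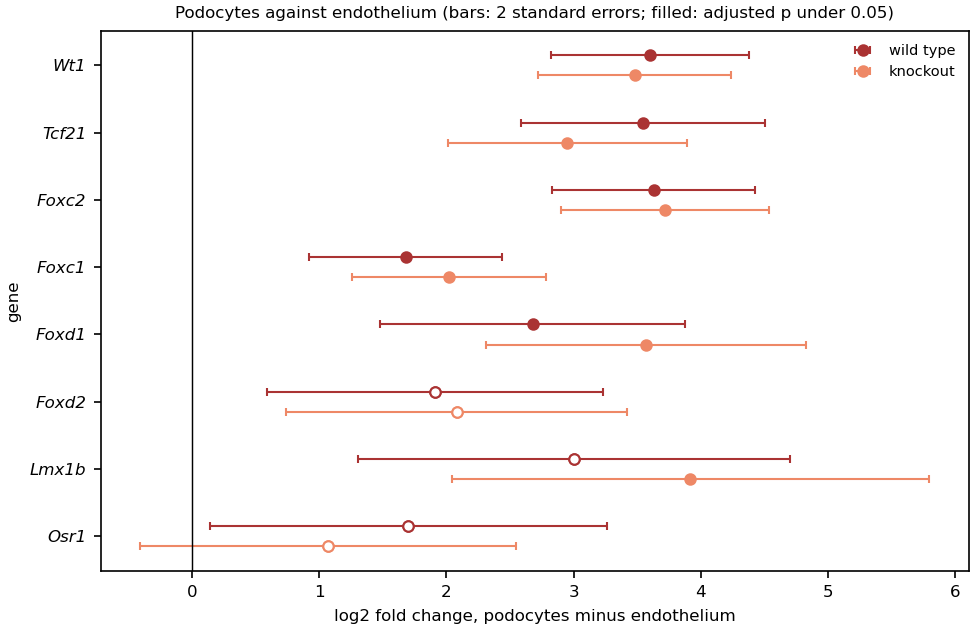
Log2 fold change of podocytes minus endothelium for each factor, in wild type and knockout, with bars of 2 standard errors and filled points where the edgeR adjusted p is under 0.05. Wt1, Tcf21 and Foxc2 lie between 2.95 and 3.72, and the Osr1 bar in knockout includes 0.

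The plot of cell type differences separates the factors by size and by width of the interval. The intervals of 2 standard errors ran from 2.83 to 4.37 for Wt1 and from 0.92 to 2.44 for Foxc1 in wild type. Lmx1b had the widest interval among the called factors, from 2.04 to 5.81 in knockout.

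To compare the genes with each other, levels were divided by exon length (CPM per kb of exon, the union of all annotated exons of the gene in GENCODE M21, which covers transcripts that podocytes may not use). Tcf21 was the highest in wild-type podocytes at 184 ± 48.5 (SD, n = 2), followed by Wt1 at 147 ± 30.2 and Foxc2 at 32.7 ± 8.24. Tcf21 stood above Wt1 in each podocyte library, and both were above Foxc2 in each. Below these came Foxc1 (3.16 ± 1.06), Foxd2 (2.66 ± 1.47), Osr1 (2.49 ± 0.306), Foxd1 (1.27 ± 0.424) and Lmx1b (0.635 ± 0.212). The replicate ranges of Foxc1, Foxd2 and Osr1 overlapped one another, and Lmx1b was below the others. The place of Foxd1 rests on its length: GENCODE gives its single exon 5064 bases and RefSeq gives the gene 2461, and over the RefSeq span Foxd1 stood at 2.62 ± 0.872, level with Foxd2 and Osr1, and Foxc1 at 4.62 ± 1.55. That length was tried after the data were seen. The order of Osr1 and Foxd2 was turned in knockout podocytes (3.40 ± 2.84 and 2.94 ± 1.24), within their spread. Knockout podocytes held Tcf21 at 120 ± 25.5, Wt1 at 99.9 ± 22.3, Foxc2 at 20.2 ± 3.03, Foxc1 at 4.42 ± 1.51, Foxd1 at 1.60 ± 0.617 and Lmx1b at 0.509 ± 0.197. In both genotypes the podocyte levels per kb thus fell into 3 abundant factors and 5 scarce ones.

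Endothelium held the same factors at lower levels per kb, led by Tcf21 (15.8 ± 11.2 in wild type and 15.5 ± 3.90 in knockout) and Wt1 (12.1 ± 6.10 and 8.93 ± 1.90). Lmx1b was last in both, at 0.0786 ± 0.0684 and 0.0311 ± 0.0185. As a share of the podocyte mean, endothelium held 8.26% of Wt1, 8.57% of Tcf21 and 8.07% of Foxc2 in wild type, and 8.94%, 12.9% and 7.55% in knockout. The podocyte markers Synpo (7.03% and 7.50%) and Cdkn1c (9.59% and 7.33%) were in the same range, while Clic5 stood at 26.6% and 39.6%. Foxc1 was held at 31.2% and 24.6%, Foxd2 at 26.6% and 23.7% and Osr1 at 30.8% and 47.5%. The median share was 13.9% over the 8 factors and 11.1% over the 6 markers in wild type, and 10.9% and 15.6% in knockout. How much of each endothelium value came from podocyte transcripts in that sort was not tested.

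Between genotypes none of the 8 factors passed edgeR's test in podocytes or in endothelium, where 1 of 16477 genes (0.00607%, Emcn itself) was called in each. At an unadjusted p under 0.05 the edgeR test gave 730 genes (4.43%) in podocytes and 905 (5.49%) in endothelium, and none of the 8 factors was among them. In podocytes Wt1, Tcf21 and Foxc2 had both knockout libraries below both wild-type libraries, an arrangement found in 16.0% of all genes tested. Their fitted log2 differences, knockout minus wild type, were -0.55 for Wt1 (standard error 0.35, interval of 2 standard errors from -1.25 to 0.14), -0.62 for Tcf21 (0.43, -1.49 to 0.25) and -0.70 for Foxc2 (0.36, -1.41 to 0.02), with an edgeR adjusted p of 0.978 for each. Each of these intervals holds both no difference and a level lower by more than 1 log2 unit in knockout podocytes. The other factors lay on both sides of 0: Lmx1b at -0.32 (standard error 0.73), Foxc1 at 0.49 (0.36), Foxd1 at 0.33 (0.54), Foxd2 at 0.14 (0.62) and Osr1 at 0.45 (0.73). None of the 8 had both knockout podocyte libraries above both wild-type ones (15.1% of all genes).

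In endothelium no factor had its knockout libraries wholly below (19.7% of all genes) or wholly above (24.8%) the wild-type ones. The log2 differences were -0.44 for Wt1, -0.03 for Tcf21, -0.78 for Foxc2, 0.14 for Foxc1, -0.56 for Foxd1, -0.04 for Foxd2, -1.24 for Lmx1b and 1.08 for Osr1, with standard errors from 0.35 to 1.03 and edgeR adjusted p values from 0.716 to 0.987. The direction for Tcf21 and Foxd2 turned under other scalings and fits. Podocytes minus endothelium, the genotype differences themselves differed by amounts that ran from -0.63 for Osr1 to 0.93 for Lmx1b, with an edgeR adjusted p of 1 for all 8. That last comparison called 0 genes of 16477 by edgeR and 428 (2.60%) at an unadjusted p under 0.05, and none of the 8 factors was among those 428.

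**Figure D3:**
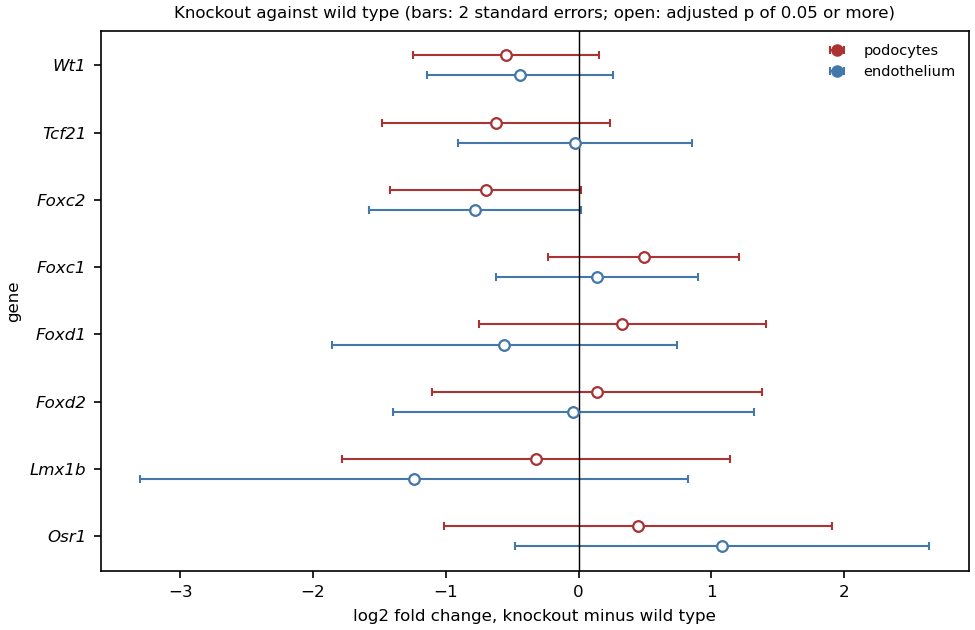
Log2 fold change of knockout minus wild type for each factor in podocytes and in endothelium, with bars of 2 standard errors and open points for an edgeR adjusted p of 0.05 or more. All 16 points are open and all bars include 0.

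The plot of genotype differences shows intervals that reach more than 1 log2 unit to at least 1 side for most factors, and for Lmx1b in endothelium from -3.29 to 0.81.

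The podocyte markers were compared between genotypes in the same libraries. The 6 markers summed to 18130 and 11700 CPM in wild-type podocytes and to 8478 and 9997 in knockout podocytes, so the knockout libraries had the lower sums, although none of the 6 passed (0 of 6 called, median log2 difference -0.64). Synpo and Kirrel overlapped between genotypes: Synpo stood at 4773 and 1904 CPM in wild-type and 2589 and 1727 in knockout podocytes, and Kirrel at 169.9 and 127.4 in wild-type and 109.7 and 128.2 in knockout. When the mean log2 level of these markers was subtracted within each library, Wt1 stood at -1.60 ± 0.12 in wild-type and -1.54 ± 0.18 in knockout podocytes (SD, n = 2), Tcf21 at -1.80 ± 0.03 and -1.79 ± 0.16, and Foxc2 at -4.08 ± 0.05 and -4.14 ± 0.07. These knockout minus wild-type differences were 0.06, 0.01 and -0.06, given as a description with no test. The same subtraction put Foxc1 at -6.36 ± 0.07 and -5.26 ± 0.35, Foxd1 at -7.85 ± 0.06 and -6.92 ± 0.41 and Foxd2 at -7.83 ± 0.40 and -7.02 ± 0.47, with both knockout libraries above both wild-type ones. The subtraction adds 0.62 log2 units to every gene in knockout relative to wild-type podocytes, since the markers themselves averaged 10.53 and 9.91, and it leaves 50.3% of all genes tested with both knockout libraries on top. For these 3 factors that arrangement is therefore no result about them, and none of them showed it before the subtraction. Lmx1b stood at -8.90 ± 0.05 and -8.60 ± 0.69 and Osr1 at -8.17 ± 0.25 and -7.40 ± 1.49, with overlap. With podocyte genes described as targets of these factors as the reference in place of the markers, the differences were -0.03 for Wt1, -0.08 for Tcf21, -0.16 for Foxc2, 1.01 for Foxc1, 0.83 for Foxd1 and 0.71 for Foxd2. That reference was added after the data were seen.

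**Figure D4:**
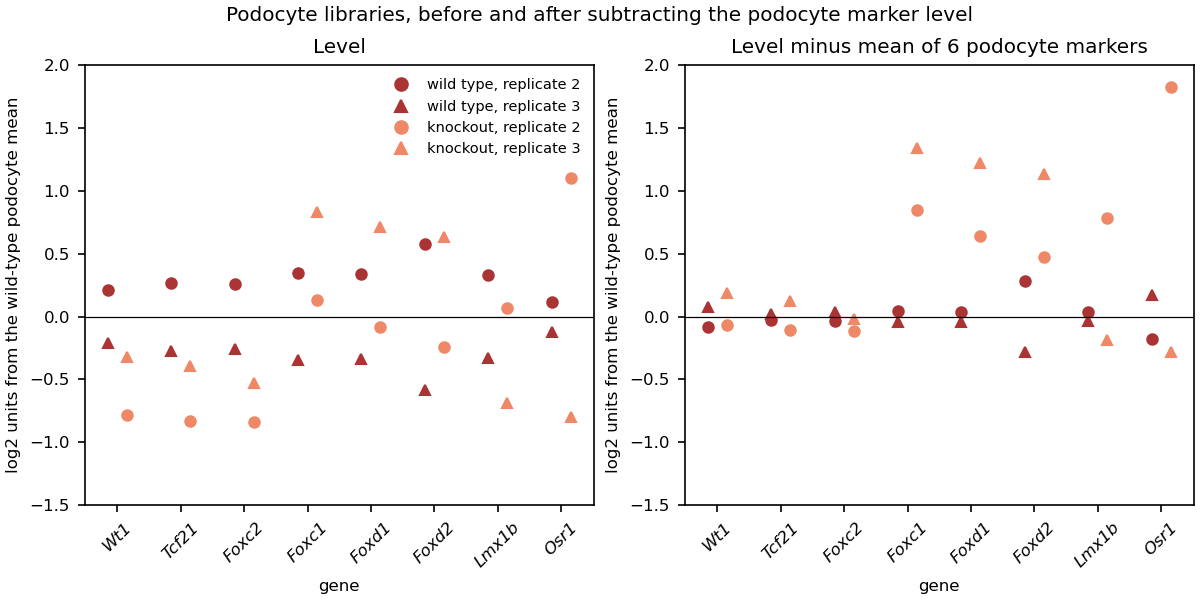
Log2 level of each factor in the 4 podocyte libraries, as distance from the wild-type podocyte mean, before (left) and after (right) subtracting the mean log2 level of 6 podocyte markers in the same library. Wt1, Tcf21 and Foxc2 draw together on the right. The subtraction raises every gene by 0.62 in the knockout libraries relative to wild type, and both knockout values of Foxc1, Foxd1 and Foxd2 are then above both wild-type values, as for 50.3% of all genes.

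The plot of levels before and after this subtraction shows that Wt1, Tcf21 and Foxc2 stood lower in knockout by about as much as the markers did. A gene at the same level in both genotypes would lie 0.62 above the zero line on the right. What part the number of podocytes in each sort had in the values of these 3 factors was not tested.

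Across the 8 libraries the factors also differed in how alike their profiles were. Likeness was taken as the root-mean-square difference of log2 CPM after each gene was centred on its own mean, over 8 libraries that share their cell type contrast, so it is a description. Among the 8, Wt1 and Tcf21 were closest at 0.256 log2 units, followed by Wt1 and Foxc2 at 0.285, and Foxc2 and Osr1 were farthest apart at 1.51. Over all 16477 genes, the nearest to Wt1 were Tmem150c (0.229), Rarres1 (0.232) and Nxph3 (0.240). Tcf21 had Rarres1 (0.101), Tlr7 (0.132) and Ddn (0.158), the gene of the podocyte protein dendrin. For Foxc2 they included Aplp1 (0.283) and Wt1 (0.285). Lmx1b came nearest to Rassf10 (0.247), Sh3bgrl2 (0.252) and Dag1 (0.256), and Foxc1 to Mtcl1 (0.249), Srgap1 (0.266) and Cotl1 (0.293). Foxd1 had larger distances to its neighbours, Hoxc6 (0.334), Fzd2 (0.365) and Pdpn (0.367), as did Foxd2 to Itgb5 (0.304), Gm4524 (0.315) and Pbx2 (0.326) and Osr1 to Smoc1 (0.304), Hapln3 (0.336) and Hlf (0.356).

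The chromosomal surroundings of the factors were examined next. RefSeq places 83 other genes within 200 kb, of which 21 were on complete lines and 20 were tested. Averaged over genotypes 3 of these 20 were higher in podocytes and 1 was lower, near the shares of 11.1% and 7.19% over all genes. Foxl1, another forkhead gene, lies 8.8 kb from Foxc2. It stood at 6.16 and 3.04 CPM in wild-type endothelium, 2.82 and 3.36 in knockout endothelium, 47.6 and 28.8 in wild-type podocytes and 22.8 and 30.4 in knockout podocytes (log2 3.08, standard error 0.30, edgeR adjusted p = 3.92e-05). Its knockout podocyte libraries were not both below the wild-type ones, unlike those of Foxc2. The long non-coding gene C130021I20Rik, whose span overlaps that of Lmx1b, was higher as well (log2 3.25, standard error 0.31, edgeR adjusted p = 3.66e-05), at 50.6 and 33.8 CPM in wild-type podocytes and 3.80 and 2.17 in wild-type endothelium. It shares no exon base with Lmx1b in GENCODE M21, and whether the counting used strand is not given in the sources used here. Them7, 50.7 kb from Wt1, was the third higher gene (log2 1.07, standard error 0.32, edgeR adjusted p = 0.0396), and its level in knockout podocyte replicate 2 was 44.5 CPM against 15.6 in replicate 3. Tal1, 147.5 kb from Foxd2 and a regulator of blood and endothelial development, was lower in podocytes (log2 -5.19, standard error 0.60, edgeR adjusted p = 0.000134). Fendrr and Mthfsd beside Foxc2, Btf3 and Utp15 beside Foxd1, and Zbtb43 and Ralgps1 beside Lmx1b were among the 16 that did not pass.

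Other regulators of podocyte genes were compared by the average over genotypes. Of 9 measured (Nr3c1 and Vdr were on incomplete lines), 6 were higher in podocytes (11.1% of all genes) and none was lower. Among them, Dach1 (log2 1.89), Klf15 (1.47), Zhx2 (1.13), Tead1 (0.91) and Klf6 (0.73) had smaller differences than 6 or more of the 8 factors. Yap1, Cux1 and Wwtr1 did not pass. The median of the 9 was 0.91, and 0 of 9 passed between genotypes in either cell type.

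Genes for proteins known to bind the factors were compared in the same way. Of 10 measured none was higher in podocytes, 7 did not pass and 3 were lower, where 7.19% of all genes were called lower: Ldb2, which encodes a LIM domain binding protein (log2 -3.99, standard error 0.16, edgeR adjusted p = 8.49e-07), Tcf4, an E-protein gene (-1.40, 0.16, 0.000112), and Id3, an inhibitor of helix-loop-helix proteins (-1.44, 0.22, 0.000869). The closest counterparts did not pass: Ldb1 stood at -0.16 (standard error 0.23), Tcf12 at -0.04 (0.18) and Tcf3 at -0.66 (0.29).

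Podocyte genes described as targets of these factors were called higher in podocytes in all 11 cases that could be measured. That held in wild type, in knockout and on average, where 4.73%, 6.09% and 11.1% of all genes were called higher. This list was made of podocyte genes, so its direction is no independent evidence, and others such as Nphs1, Ptpro, Magi2 and Plce1 were on incomplete lines. Large average differences were those of Synpo (13.8-fold), Cdkn1c (11.9-fold), Vegfa (7.16-fold), Kirrel (6.31-fold) and Sulf1 (5.50-fold). In the genotype comparison in podocytes 0 of 11 passed and all 11 log2 differences were below 0, with a median of -0.56 against 0.02 over all genes. Of these 11 genes 5 are also among the 6 podocyte markers above, so the counts of both lists are not independent. Vegfa, the growth factor that podocytes supply to the glomerular endothelium, stood at 1410 and 1012 CPM in wild-type and at 658 and 787 in knockout podocytes (log2 -0.74, standard error 0.26, edgeR adjusted p = 0.978). Sulf1, a heparan sulfate sulfatase described as a WT1 target, had a log2 difference of -0.93 (standard error 0.39, edgeR adjusted p = 0.978).

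Transcription factors of nephron progenitors and tubules give a setting for Osr1. Of 16 measured, 5 were higher in podocytes on average (11.1% of all genes) and none was lower (7.19%). Osr2, the paralogue of Osr1, was 25.5-fold higher (log2 4.67, standard error 0.31, edgeR adjusted p = 3.98e-06). It stood at 62.9 and 55.7 CPM in wild-type and at 149 and 65.1 in knockout podocytes, against 1.52 to 6.35 in the 4 endothelium libraries. Pax8 (log2 2.56), Eya1 (2.09) and Sall1 (1.34) were also among the 5. Pax8 also peaked in knockout podocyte replicate 2, at 625.6 CPM against 238.8 to 263.8 in the other podocyte libraries, as Osr1 and Osr2 did. It is among the 5 parietal markers, so this value is part of that library's parietal sum given above. Among the podocyte libraries Cldn1 and Pax2 of that list peaked there too, while Krt8 and Krt18 peaked in wild-type replicate 3.

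Factors of stroma and mural cells, the cells that FOXD1 and TCF21 are also known from, were mixed. Of 8 measured, Foxs1 (log2 2.31) and Heyl (1.51) were higher in podocytes (11.1% of all genes) and 3 were lower (7.19%), Meis2 (-2.50) and Ebf1 (-1.75) among them. The 8 measured mesangial and mural markers summed to 513.9 to 1307 CPM in podocytes and 326.3 to 679.8 in endothelium, and 4 of 8 were called higher in podocytes on average. Their part in the Foxd1 and Tcf21 values was not tested.

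Among the other forkhead genes 27 of 30 were tested, and 4 were higher and 1 was lower in podocytes on average, near the shares of 11.1% and 7.19% over all genes. The 4 were Foxl1 (log2 3.08), Foxs1 (2.31), Foxq1 (1.40) and Foxj3 (1.18), and the lower one was Foxo1 (-1.20). The median of the 27 was -0.02. Endothelial transcription factors lay on the other side, with 13 of 14 lower in podocytes, led by Sox18 (-5.24), Tal1 (-5.19), Gata5 (-5.03), Sox7 (-4.62), Sox17 (-3.96) and Fli1 (-3.50). Between genotypes no gene of these lists passed in either cell type.

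**Figure D5:**
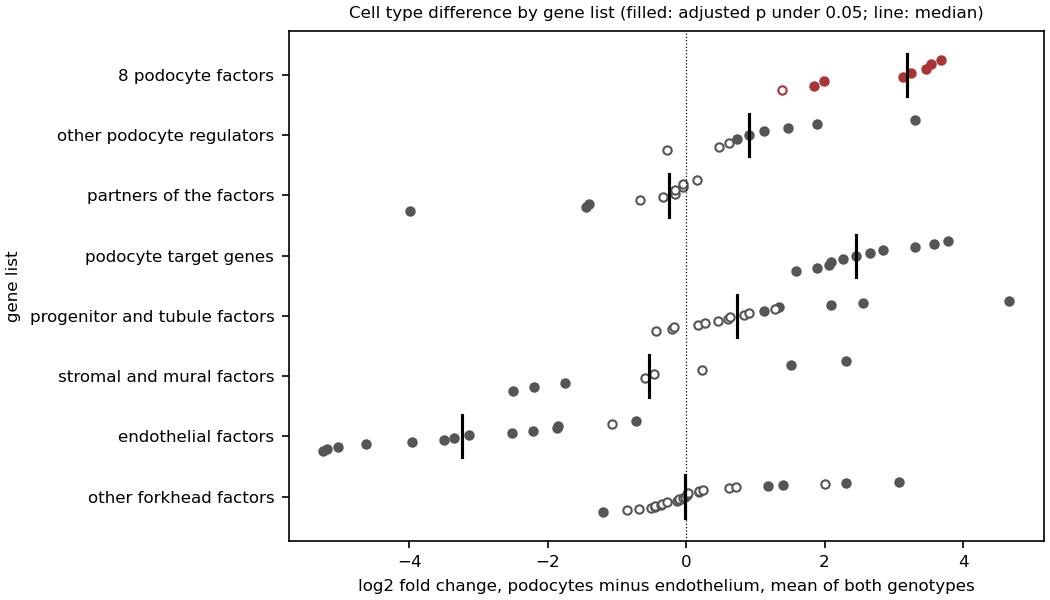
Log2 fold change of podocytes minus endothelium, averaged over genotypes, for the 8 podocyte factors and 7 other gene lists, with a dot per gene, filled where the edgeR adjusted p is under 0.05, and a line at the median of each list. The 8 factors have a median of 3.19, the other podocyte regulators 0.91, the other forkhead genes -0.02 and the endothelial factors -3.24.

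The plot of gene lists sets the 8 factors beside these groups. Some genes stand in more than 1 list, such as Dach1 among the regulators and the targets and Foxs1 among the mural and the forkhead genes, so their dots are drawn again.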

How the data were processed

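Libraries from sorted mouse kidney cells followed Illumina's TruSeq protocol, per the labels. The deposited file is a single table in which the authors give unnormalized counts by Entrez gene for 8 libraries. The genome build mm10 and the tool DESeq2 are named in the submitters' processing notes, while the aligner, the counting tool, the annotation and the use of strand are not given in the sources used here. Of 22533 gene lines, 17326 held all 8 counts. The other 5207 (23.11%) were short, and which library each of their counts belonged to was unclear, so they are not analysed here. These short lines left unreadable cells in 3 of the deposited columns, which were recorded as another kind of value for that reason alone. All complete lines held whole-number counts, and 617 of them had no symbol.

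These counts were tested in edgeR 4.0.16 (R 4.3.3), by filterByExpr over the 4 groups (16477 genes, all 8 factors among them), TMM scaling, 1 mean per group over all 8 libraries and the quasi-likelihood F test, with Benjamini-Hochberg adjustment over all genes tested and a threshold of 0.05. Standard errors are |log2 fold change| / sqrt(F), and log2 CPM used a prior count of 2. With 2 libraries against 2, an exact permutation test cannot go below p = 0.333, so none is given for single genes. Read depth limits Lmx1b most, and p-values cover only the spread between libraries. Alternatives were DESeq2 size factors in edgeR, library size only, DESeq2 1.42.0, limma 3.58.1 voom with quality weights, an adjusted p under 0.10, no low-count filter or one at a mean of 5 CPM, the replicate number as a block, only the 4 libraries compared, and each library left out in turn. The edgeR test in the fits without a library, a crossed block (podocyte numbers swapped), the target list as a reference and the RefSeq gene span as a length were added after the data were seen. The factors and gene lists were chosen with earlier results of these data known. The text names all 8 factors, up to 6 called genes per list by size of change, genes within 200 kb of a factor and the 3 nearest profiles to each, though a few of these are not reported here. Gene positions, neighbours and promoters came from RefSeq tables of assembly GRCm38.p6, and exon lengths from GENCODE M21.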

Additional observations from a re-analysis of the deposited data

How the results depend on the processing

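The higher level of Wt1, Tcf21, Foxc1 and Foxc2 in podocytes passed in both genotypes under every alternative that kept all libraries of the comparison, as did that of Foxd1 where it was tested. Calls that changed were those of Lmx1b, which passed in wild type with DESeq2 size factors (edgeR adjusted p = 0.048), DESeq2 (0.0132) and the replicate block (0.0311) and was lost in knockout with library size only (0.0624), of Foxd2, which passed with DESeq2 in wild type (0.0404) and knockout (0.0159), and of Osr1, whose average passed with DESeq2 (0.0366) and the replicate block (0.0359). At an adjusted p under 0.10 Lmx1b also passed in wild type (6 factors) and Foxd2 in knockout (7 factors). With a mean of at least 5 CPM only 4 factors were tested, and all 4 passed on average.

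Small genotype differences turned sign. In podocytes Foxd2 was at -0.02 with the replicate block. In endothelium Tcf21 was at 0.20 with library size only, 0.16 with voom, 0.11 with a mean of at least 5 CPM, 0.06 with the replicate block, 0.05 with the crossed block and 0.00 with only the 4 libraries compared, and Foxd2 at 0.34 with library size only, 0.02 with voom, 0.00 with the crossed block and 0.01 with only the 4 libraries. The difference between genotype effects turned for Foxc2 with library size only (-0.09) and voom (-0.01) and for Foxd2 with library size only (-0.08) and the replicate block (-0.02). The cause was not tested.

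Library size only moved the median of all genes by -0.28 in the knockout cell type comparison, -0.17 in the average, 0.11 and 0.33 in the genotype comparisons of podocytes and endothelium and -0.21 in their difference. Of the genes it called, 39.4% were higher in podocytes in knockout and 45.1% on average, against 58.7% and 60.8% with TMM. The genotype comparison in podocytes called 8 genes with DESeq2 and 0 with library size only, voom, a mean of at least 5 CPM, the crossed block or only the 4 libraries. In endothelium it called 4 with DESeq2 and 0 with library size only, a mean of at least 5 CPM or the crossed block. None of the 8 factors was among them.

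Without single libraries the genes called ranged from 769 to 1672 in wild type, 960 to 1809 in knockout, 2074 to 3278 on average and 0 to 1 in each genotype comparison, and the factors called from 3 to 5, 3 to 6, 6 to 8 and 0 to 0. A group left with 1 library was assumed to vary like the others. The labels do not say that a replicate number is shared between groups. Deviations of equal numbers correlated at -0.13 between the wild-type cell types, 0.11 between the knockout ones, and 0.16 and 0.19 between genotypes of podocytes and endothelium. The replicate block called 1831, 2241 and 3435 genes in the cell type comparisons, with 6, 6 and 8 factors, and the crossed block 1357, 1578 and 2912. Reads limit Lmx1b, with 1 to 8 per endothelium library.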
